A study of Rattus norvegicus with 7 samples.

Results

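The binding of YBX1 to chromatin, read by sequencing of immunoprecipitated DNA (ChIP-seq), was compared between rat A10 cells that overexpressed Arteridin and A10 cells that overexpressed a mutant of the transcript lncPSR. Both are products of the Phenotype Switching Regulator gene, Arteridin the coding one. The members were all peaks of the 2 deposited YBX1 lists, 608 in the library titled ART and 341 in the library titled PSR, which is 949 of the 6123 peaks deposited in the series. A peak was called shared when it overlapped a peak of the other list by at least 1 bp, and list-only otherwise. A10 is a smooth muscle line from rat thoracic aorta, used at passages 10 to 15 and transfected with plasmid by lipofection. ART was read as overexpression of FLAG-tagged Arteridin. PSR was read as overexpression of lncPSR carrying the mutation ATT, taken here as a change of the start codon, so that the RNA would be made without the peptide. The labels neither explain ATT nor tie a title to a construct. Both groups shared the cell line, the transfection method and a label naming 3 YBX1 antibodies without saying which was used where, and both were read as paired ends of 150 nt. Each group had 1 library. No difference between them therefore has a replicate check, no p-value was computed, and intervals cover counting error only. The YBX1 library titled NC was left out, so neither group was set against cells without a construct. Peak lists hold no expression values, so smooth muscle markers could not be checked.

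YBX1 is a cold-shock domain protein that binds both DNA and RNA. On DNA it is known for the Y-box, an inverted CCAAT element of many promoters. In RNA it packs messenger RNA into particles and affects translation, stability and splicing. In vascular smooth muscle, cells can move between a contractile state, rich in actin and myosin of the contractile apparatus, and a proliferating, matrix-producing state. A start-codon mutant is commonly used to keep an RNA while removing its peptide. A ChIP peak marks DNA recovered with the antibody above an expected level and does not by itself show direct contact with DNA. Genes and sequences under the peaks were not assigned here, since the sequence names are those of Rnor_6.0 and no annotation of that rat build was used.

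More YBX1 peaks were listed with Arteridin than with the lncPSR mutant, and they covered more DNA. ART held 1.78 times as many peaks as PSR and covered 422.6 kb against 197.3 kb, a ratio of 2.14. The median length was 398.5 bp (95% interval of the median 363 to 434) in ART and 370.0 bp (345 to 414) in PSR, and these intervals overlap. The upper ends of the lists lay further apart than the medians, with a longest peak of 8657 bp in ART and 3368 bp in PSR. Peaks of at least 2000 bp numbered 35 in ART and 7 in PSR.

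The lowest expected level that could be recovered from the peaks was close in both libraries. Fold enrichment was taken as (reads + 1) / (expected level + 1). The −log10 p and −log10 q are the caller's significance values before and after adjustment. All 3 come from the authors' lists. For 26 ART and 14 PSR peaks, 1 whole number of reads and 1 expected level met both fold and −log10 p. The lowest expected level was 0.362 reads per position in ART and 0.380 in PSR, a ratio of 0.954. Only 13 ART and 6 PSR peaks lay at that level, all with 5 reads. The same 5 reads carried a −log10 q of 1.69 in ART and 1.38 in PSR, so the same read number lay further above a given −log10 q in ART. Of the ART peaks, 16 had a −log10 p under 5.27, the lowest value in PSR. With the same −log10 p asked of both lists, the ART to PSR ratio was 1.64 at 6 (378 and 231 peaks), 1.58 at 7 (180 and 114) and 1.93 at 10 (54 and 28). At 15 the lists were nearly equal, with 25 and 22 peaks.

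The lists overlapped in part, and each overlap read differently from its own side. Of the ART peaks, 99 were shared (16.3%, 95% Wilson interval 13.6 to 19.4), and of the PSR peaks 105 were shared (30.8%, 26.1 to 35.9). They formed 107 overlapping pairs. The shared counts were similar on both sides, so the shorter list had the larger share. A single PSR partner was found for 93 of the shared ART peaks, 4 had 2 partners and 2 had 3. The overlap covered 82.1 kb, which is 19.4% of ART bases, 41.6% of PSR bases and 15.3% of their union. Within the shared peaks, 87.5% of PSR bases lay in ART peaks, whereas 58.1% of ART bases lay in PSR peaks. With overlap of at least 50% of both peaks the shared shares were 11.2% and 19.9%. With both lists cut to a fold of at least 4 they were 5.41% and 9.64%. The smallest overlap was 50 bp and the next 112 bp. No list-only peak lay closer than 964 bp to the other list, and the next gap was 969 bp.

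Sharing went with the −log10 q of a call, but not with its fold. The median fold was 3.02 for shared and 4.46 for ART-only peaks, and 2.85 for shared and 4.63 for PSR-only peaks. At folds of 4 to 6, 4.46% of ART and 6.84% of PSR peaks were shared. Under a fold of 2.5 the shares were 57.4% and 85.4%, and at 6 or above 44.4% and 53.3%. Of 249 ART peaks with a −log10 q under 2, 5 were shared (2.01%, 0.861 to 4.61), against the 16.3% of the whole list. Of the 25 ART peaks at 10 or above, 23 were shared (92.0%, 75.03 to 97.8). In PSR the shares were 26 of 164 under 2 (15.9%, 11.1 to 22.2) and 22 of 22 at 10 or above, against 30.8% of the whole list. The shared share was also higher among longer peaks. A longer peak meets the 1 bp rule more easily, and how much this alone would give was not tested. Of ART peaks under 300 bp, 16 of 185 were shared (8.65%), and of those of at least 2000 bp, 26 of 35 (74.3%, 57.9 to 85.8). In PSR, 18 of 122 peaks under 300 bp were shared (14.8%) and 7 of 7 of at least 2000 bp. The lists differed most at 1000 to 2000 bp, where 17 of 68 ART peaks (25%, 16.2 to 36.4) and 30 of 38 PSR peaks (78.9%, 63.7 to 88.9) were shared.

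**Figure D1:**
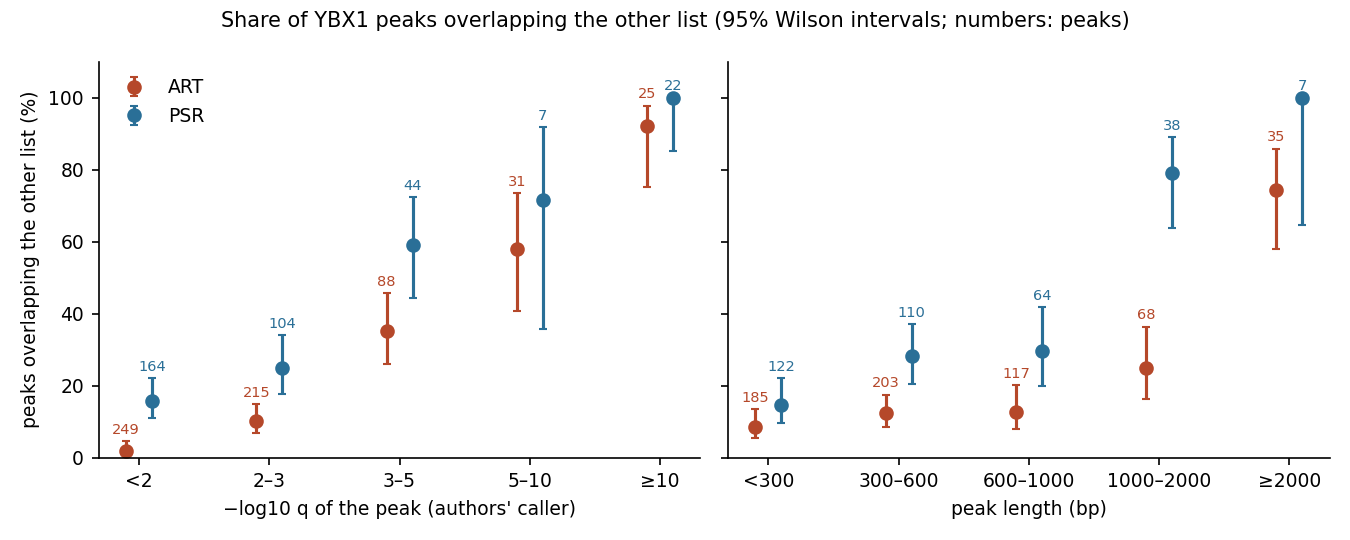
Share of YBX1 peaks overlapping the other list (vertical axis, percent) by −log10 q class (left) and by length class in bp (right), for ART (red) and PSR (blue), with 95% Wilson intervals and the number of peaks above each point. The share is 2.01% in the ART class of lowest −log10 q and 92.0% in that of highest, and PSR lies above ART in every class.

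Shared peaks were of 3 kinds by their fold, a division made after the values had been seen. Of the 107 pairs, 37 had an ART fold under 2.5, 43 a fold of 2.5 to 4 and 27 a fold of at least 4. The first kind had low folds and included the highest significance on assembled chromosomes. Its median fold was 1.94 in ART and 1.88 in PSR, and its −log10 q reached 164.4 in ART and 134.9 in PSR. The borders of many of these peaks lay close together. The median offset between partner edges was 17 bp, and both edges lay within 50 bp in 17 of the 37 pairs (45.9%). In 11 pairs an edge lay more than 500 bp from its partner. Median lengths were 970 bp in ART and 915 bp in PSR.

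The 8 most significant shared ART peaks on assembled chromosomes were all of this kind, with folds of 1.57 to 2.22. Chromosome 1 held 5 of them within the same dense block. The first, chromosome 1 from 180893097 to 180893589, had a −log10 q of 164.4 at a fold of 2.09 in ART. Its PSR partner, from 180893102 to 180893583, had 134.9 at 1.95. The second, 180806390 to 180807276, had a −log10 q of 164.1 in ART, and its partner, 180806398 to 180807275, had 116.9. Both pairs of borders differed by at most 8 bp. Chromosome 7 held a further 2. The shorter, 22328426 to 22328679, had a −log10 q of 127.5, and its PSR partner from 22328427 to 22328671 had 113.6. Chromosome 13 from 33502468 to 33505200, 2733 bp long, had 80.7 in ART, and the partner from 33502454 to 33505187 had 74.5.

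The second kind held mostly wide ART domains paired with shorter PSR peaks. Of these 43 pairs, 36 lay in dense blocks described below. Over the pairs, the median length was 2183 bp in ART and 1021 bp in PSR, and ART was the longer in 37 pairs. The pairs came from 37 ART and 43 PSR peaks, so an ART peak with several partners counts once for each. In 25 pairs the PSR peak lay wholly inside the ART peak, in 18 the peaks were staggered, and in none did PSR contain ART. The median overlap took 42.3% of the ART peak and 100% of the PSR peak. Edges lay far apart, with a median offset of 256 bp, and both were within 50 bp in 1 pair. Median folds were 3.08 in ART and 2.93 in PSR.

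The 3 longest ART peaks were of this kind. Chromosome 1 from 11960195 to 11968851, 8657 bp, held 1 PSR peak of 1866 bp, from 11966894 to 11968759. On the same chromosome, ART from 11924259 to 11930812, 6554 bp, held a PSR peak of 674 bp, from 11929825 to 11930498. Chromosome 6 from 31055345 to 31060961, 5617 bp, held 3 PSR peaks of 1329, 934 and 721 bp. Folds in that ART domain and its 3 PSR peaks were 3.24 against 2.95, 3.04 and 3.34. The 3 longest shared PSR peaks, of 3064 to 3368 bp on chromosomes 3, 13 and 18, were of the first kind, with folds of 1.82 to 1.93.

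The third kind, with a fold of at least 4, was short and alike in length on both sides. Median lengths were 337 bp in ART and 342 bp in PSR, and ART was the longer in 12 of 27 pairs. PSR lay inside ART in 3 pairs, ART inside PSR in 7, and 17 were staggered. Of these pairs, 5 lay on unplaced or random scaffolds, and 3 of those had ART folds over 20. On assembled chromosomes 3 pairs had an ART fold over 10. Chromosome 6 from 9464648 to 9465060 had an ART fold of 12.7, and its PSR partner from 9464655 to 9465087 had 14.02. Chromosome 10 from 84915178 to 84915868 had 11.2, and its partner from 84915404 to 84915876 had 12.6. Chromosome 20 from 4368704 to 4369054 had 10.2, and its partner from 4368672 to 4369001 had 7.25. These folds depend on the background of each library and are set side by side as descriptions.

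**Figure D2:**
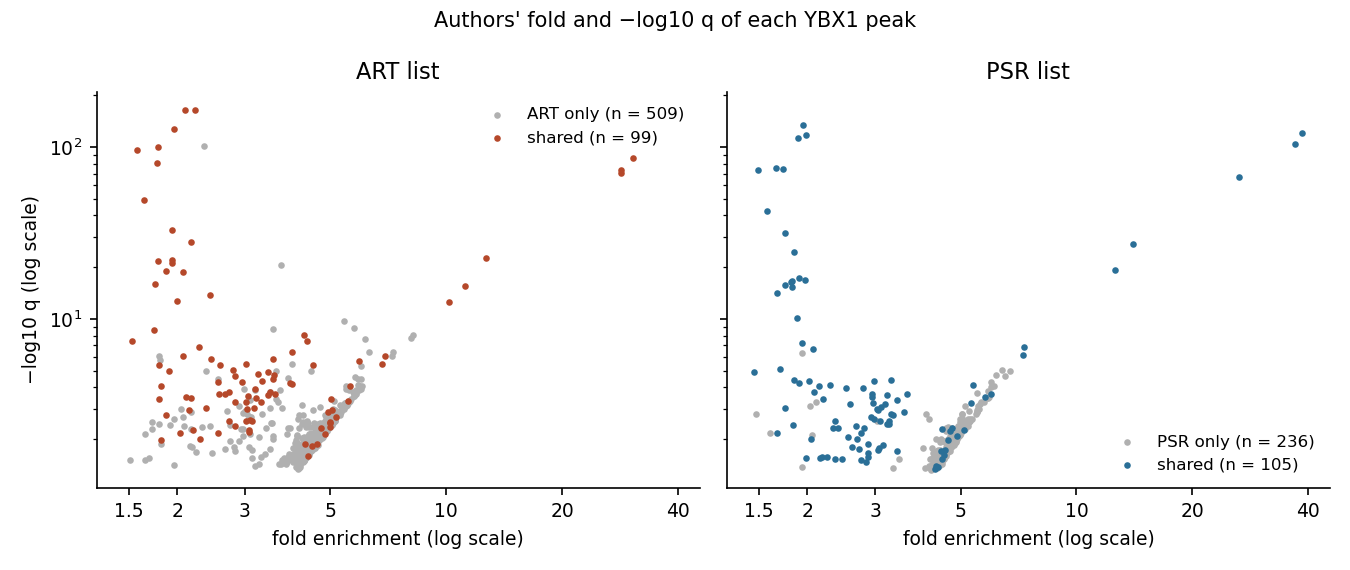
Authors' fold enrichment (horizontal, log scale) and −log10 q (vertical, log scale) of every peak in the ART list (left) and the PSR list (right), coloured where the peak overlaps the other list and grey where it does not. Shared peaks form a column at folds near 2 with −log10 q up to 164.4 in ART, a group near 3 and a few at high fold, while list-only peaks gather between folds of 4 and 6.

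Dense blocks held much of what the lists had in common. A block was a run of at least 10 peaks of the 2 lists with gaps of up to 100 kb, and 6 were found. They held 86 ART peaks (14.1%) and 54 PSR peaks (15.8%), but 46 of the 99 shared ART peaks (46.5%), 51 of the 105 shared PSR peaks (48.6%) and 58.1% of the shared bases. Within the blocks 94.4% of PSR peaks were shared (84.9 to 98.1) and 53.5% of ART peaks (43.0 to 63.7). Outside them the shares were 18.8% (14.7 to 23.7) and 10.2% (7.85 to 13.0). The list-only peaks in blocks were 40 from ART and 3 from PSR. Blocks were found on both lists pooled, so peaks are packed closely in them by construction. How much overlap such packing alone would give was not tested.

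In 4 blocks the ART median fold was 3.08 to 3.62, and there ART was the broader list. These lay on chromosome 1 from 11904153 to 11974907, chromosome 6 from 30630777 to 30650844 and from 31046711 to 31070870, and chromosome 14 from 46517738 to 46685841. Together they held 57 ART and 38 PSR peaks, and all 38 of the PSR peaks were shared. ART covered 109.5 kb and PSR 37.7 kb, a ratio of 2.91, although the ratio of peak numbers was 1.5. Of PSR bases there, 88.0% lay in ART, and 30.3% of ART bases lay in PSR. In the chromosome 14 block ART covered 31.9% of the span and PSR 10.5%. In the chromosome 1 block the figures were 48.5% and 15.6%. The second chromosome 6 block had the widest gap in the covered share of its span, 59.4% against 15.4%, and all PSR bases in it lay in ART peaks. The first had the smallest gap of the 4, 35.7% against 26.3%, and there the PSR peak from 30630777 to 30633451 began 754 bp before its ART partner.

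The other 2 blocks were sparse and of low fold. Chromosome 1 from 180644615 to 181077243 held 17 ART and 10 PSR peaks with median folds of 1.80 in both lists. ART covered 3.48% of the span and PSR 2.02%. Chromosome 13 from 33485613 to 33820432 held 12 and 6 peaks with median folds of 1.98 and 1.84, and covered shares were 3.05% and 2.49%. The ART to PSR ratios of covered length were 1.72 and 1.22, against 1.36 to 3.85 in the 4 blocks above. In these 2 blocks 16 of 29 ART peaks were ART-only, against 24 of 57 in the other 4 blocks and 83.7% of the whole ART list.

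**Figure D3:**
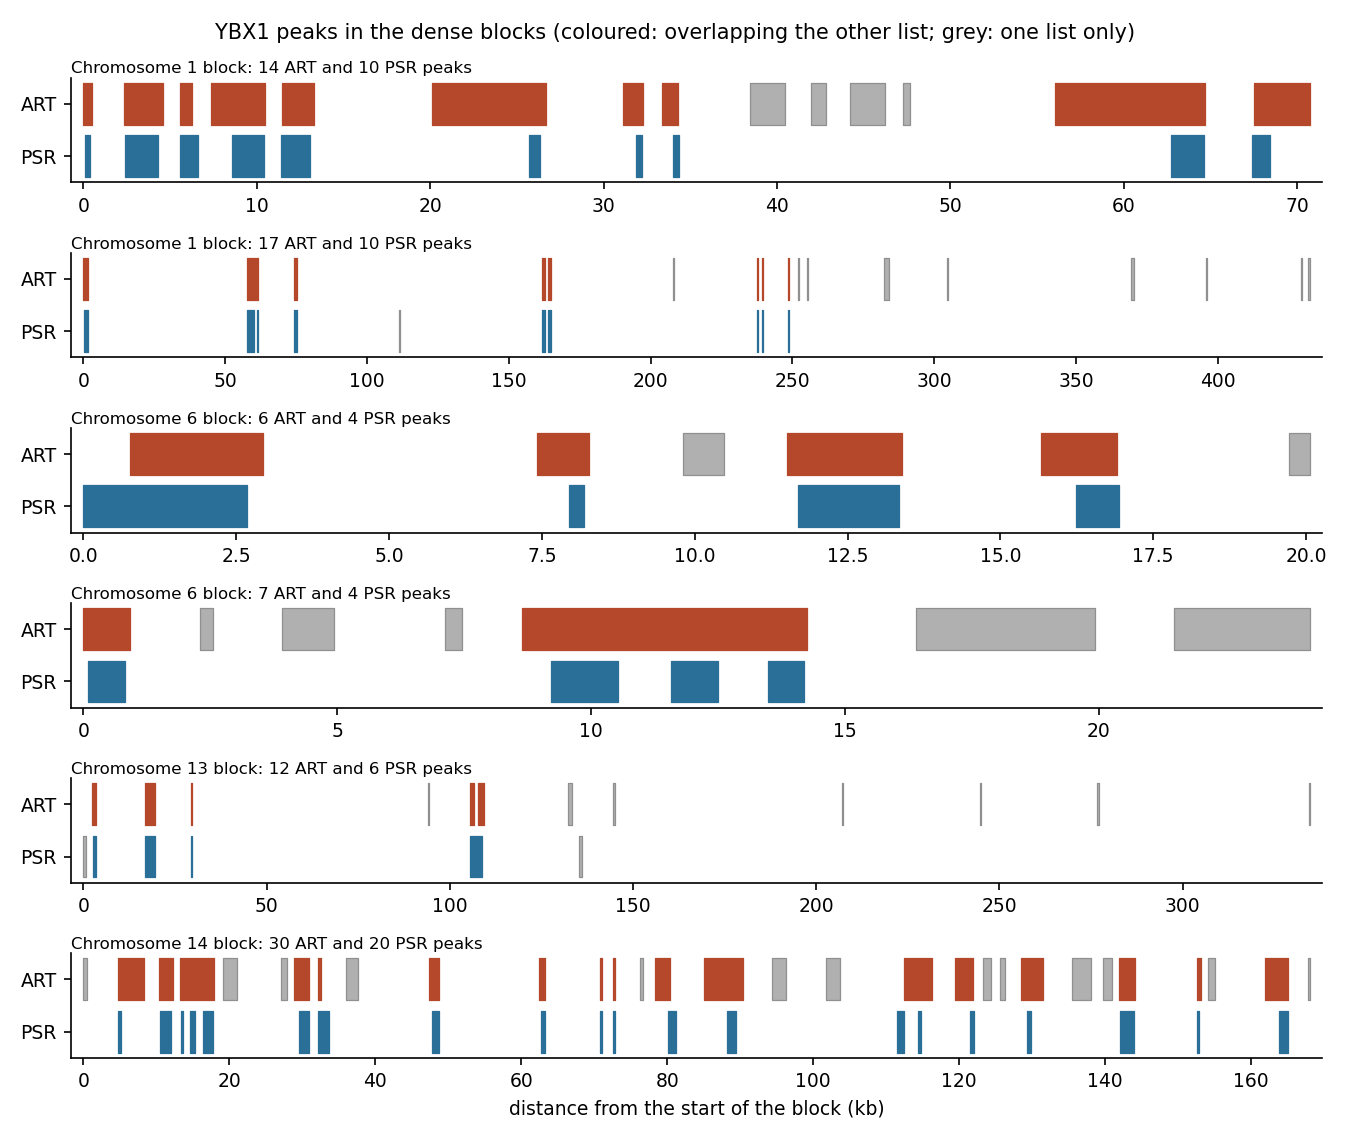
Peaks in the 6 dense blocks, by distance from the start of each block in kb (horizontal), with ART above and PSR below, coloured where a peak overlaps the other list and grey where it does not. In the blocks on chromosomes 6 and 14 and the first on chromosome 1, most PSR peaks lie under a longer ART peak, and every one of the 38 PSR peaks is coloured.

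Peaks found in 1 list alone were mostly short and close to the calling threshold. The median length was 364 bp (342 to 400) for the 509 ART-only peaks, against 847 bp (554 to 1088) for shared ART peaks. The 236 PSR-only peaks had a median of 325.5 bp (299 to 353), against 631 bp (514 to 928) for shared PSR peaks. The intervals of shared and list-only peaks did not overlap in either list. Outside the dense blocks the ART intervals did overlap, with medians of 413 bp (349 to 621) for shared and 350 bp (335 to 387) for ART-only peaks. The PSR medians there were 494 bp (365 to 631) and 325 bp (299 to 352). Shared pairs with an ART fold of at least 4 lay near the list-only medians, at 337 bp in ART and 342 bp in PSR. Folds of 4 to 6 made up 80.0% of ART-only and 92.4% of PSR-only peaks. Such folds were also the most common in the whole lists, with 426 of 608 ART and 234 of 341 PSR peaks. The list-only classes differed below a fold of 4, which held 92 of the 509 ART-only and 11 of the 236 PSR-only peaks. In the whole lists, 61 of 608 ART and 48 of 341 PSR peaks had a fold under 2.5. A further 103 ART and 44 PSR peaks had a fold of 2.5 to 4, and 37 and 40 of these were shared. Median −log10 q was 2.02 for ART-only and 1.88 for PSR-only peaks.

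Strong list-only peaks were few, and more of them belonged to ART. At a −log10 q of 5 or more there were 15 of 509 ART-only peaks and 2 of 236 PSR-only peaks. In the whole lists 56 of 608 ART and 29 of 341 PSR peaks reached that value. As given above, the same read number carried a higher −log10 q in ART at the background level, so this cutoff was not equal in both lists. Of the 8 highest ART-only peaks on assembled chromosomes, the first stood far above the others. Its −log10 q was 101.7 and its fold 2.35. It spanned chromosome 1 from 180896778 to 180897025, in a dense block and 3194 bp from the nearest PSR peak. The other 7 had −log10 q values of 6.42 to 9.66. The fold was 5.44 for the peak on chromosome 3 from 129671508 to 129671749. It was 5.77 on chromosome 1 from 11951446 to 11951843, in a dense block. Chromosome 1 from 38442338 to 38444912 was 2575 bp long with a fold of 3.54, and its nearest PSR peak was 1.33 Mb away. The highest fold of the 8 was 8.21, on chromosome 1 from 162984532 to 162985110, 5.57 Mb from PSR. Chromosome 4 from 157607261 to 157608143 followed with 8.08 and 10.6 Mb, and chromosome 5 from 173429485 to 173430362 with 7.27 and 20.6 Mb. Chromosome 6 from 30650493 to 30650844 had a fold of 6.15 and lay 2782 bp from PSR. A further ART-only peak, on an unplaced scaffold with no PSR peak, reached a −log10 q of 20.5 at a fold of 3.72.

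In PSR the 8 strongest list-only peaks ranged from 3.99 to 6.35 in −log10 q. The first, chromosome 4 from 77447780 to 77448429, had a fold of 1.94 and lay 46.2 kb from the nearest ART peak. The other 7 were 265 to 356 bp long with folds of 6.002 to 6.73, and none lay in a dense block. The fold was 6.42 on chromosome 7 from 768615 to 768911, and 6.73 on chromosome 9 from 61668500 to 61668855. It was 6.19 on chromosome 3 from 13350905 to 13351169, and 6.53 on chromosome 1 from 138299963 to 138300258. The longest PSR-only peak, chromosome 15 from 45606484 to 45607894, was 1411 bp. The longest ART-only peak, chromosome 6 from 31063115 to 31066631, was 3517 bp and lay 2211 bp from a PSR peak. A peak missing from a list has no value there, so absence of YBX1 was not measured at any of these sites.

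Most list-only peaks were far from the other list. The median distance from an ART-only peak to the nearest PSR peak was 2479 kb (2144 to 2905), and from a PSR-only peak to the nearest ART peak 1518 kb (1282 to 2006). A sparser list is farther away on average, and ART held 1.78 times as many peaks. ART-only peaks lay a median of 1528 kb from the next peak of their own list, and PSR-only peaks 4271 kb. Both kinds of list-only peak were thus nearer to ART than to PSR at the median. Within 10 kb of the other list lay 40 ART-only peaks (7.98% of the 501 with a PSR peak on their sequence) and 9 PSR-only peaks (3.85% of 234). Within 1 Mb the numbers were 151 (30.1%) and 88 (37.6%). No peak of the other list was on the same sequence for 8 ART-only and 2 PSR-only peaks.

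Dense blocks were defined by short gaps between the peaks of both lists, so list-only peaks in them lay near the other list by construction. Of the 40 ART-only peaks within 10 kb of PSR, 27 were in blocks, where the median distance was 4.61 kb (3.13 to 8.66). Outside the blocks 13 of 461 ART-only peaks (2.82%) and 7 of 231 PSR-only peaks (3.03%) lay within 10 kb, and medians were 2900 and 1586 kb. The farthest ART-only peaks were all on chromosome 6, where 147819641 to 147820412 was 45.9 Mb from PSR. The farthest PSR-only peak, chromosome 5 from 25074570 to 25074986, was 24.4 Mb from ART.

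**Figure D4:**
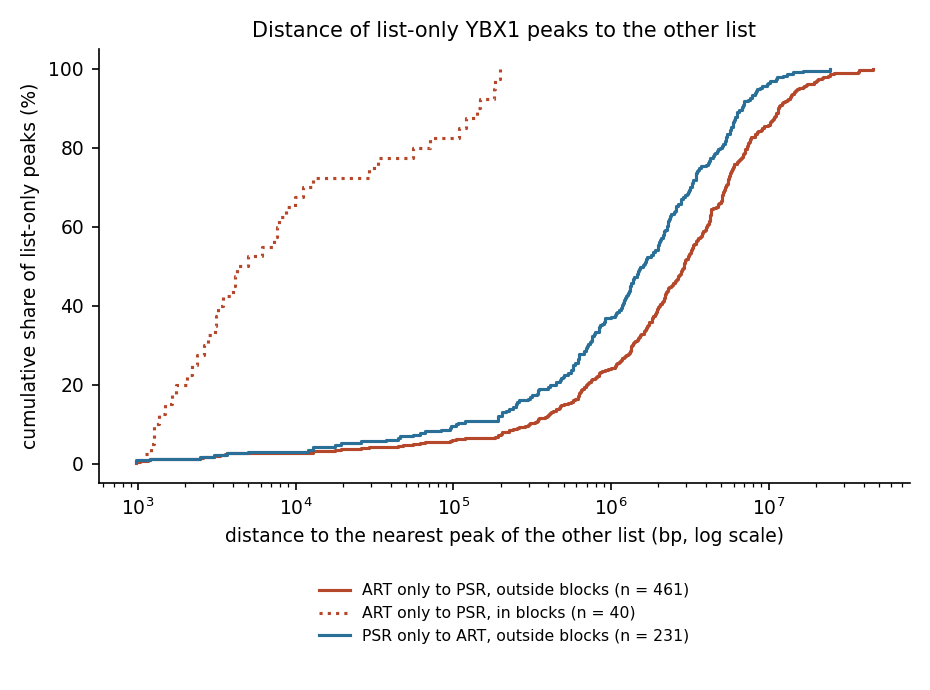
Cumulative share of list-only peaks (vertical, percent) by distance to the nearest peak of the other list (horizontal, bp, log scale), for ART-only peaks outside blocks (red line) and in blocks (red dots) and PSR-only peaks outside blocks (blue line). In blocks the ART-only peaks have a median of 4.61 kb, while outside blocks the curves reach 2.82% and 3.03% at 10 kb and pass the median beyond 1 Mb.

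The shares of the 2 lists on each chromosome lay within a few percentage points of each other. ART held more peaks than PSR on all 22 assembled chromosomes. The share of the list on a chromosome differed by at most 2.48 percentage points, and the 95% intervals of the 2 lists overlapped on every chromosome. On 3 chromosomes, 5, 11 and 15, the PSR share lay outside the ART interval. Chromosome 1 held 98 ART peaks (16.1%, 13.4 to 19.3) and 60 PSR peaks (17.6%, 13.9 to 22.0), and chromosome 2 held 61 (10.0%) and 32 (9.38%). The widest gap was on chromosome 11, with 24 ART peaks (3.95%, 2.67 to 5.81) and 5 PSR peaks (1.47%, 0.628 to 3.39), a ratio of 4.80. Among chromosomes with at least 4 PSR peaks the ratio was lowest on chromosome 10, 1.15, with 15 and 13 peaks. Scaffolds held 19 ART and 11 PSR peaks.

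Shared peaks were less evenly spread than the lists. Chromosome 14 held 19 of the 99 shared ART peaks (19.2%) but 26 of the 509 ART-only peaks (5.11%). For PSR the numbers were 22 of 105 (20.95%) and 6 of 236 (2.54%). Its dense block accounted for 17 and 20 of those shared peaks. Outside that block chromosome 14 held 15 ART and 8 PSR peaks, of which 2 and 2 were shared. Of chromosome 1 peaks, 26.5% of ART and 45% of PSR were shared, against 16.3% and 30.8% of the whole lists. Here too most shared peaks lay in dense blocks. The chromosome 1 blocks held 10 and 8 of its 26 shared ART peaks, and 10 and 9 of its 27 shared PSR peaks. On chromosome X none of the 30 ART and 17 PSR peaks was shared, which allows a shared share of up to 10.0% and 17.6% by the limit of 3 counts over the number of peaks. None was shared on chromosomes 9, 11 and Y either, where ART held 20, 24 and 2 peaks and PSR 10, 5 and 1. For the 20 ART peaks of chromosome 9 and the 24 of chromosome 11, a count of 0 allows up to 15.0% and 12.5% by the same limit. Chromosomes 9, 11, X and Y held no dense block. Outside the blocks 10.2% of all ART and 18.8% of all PSR peaks were shared, close to the limits for chromosome X.

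**Figure D5:**
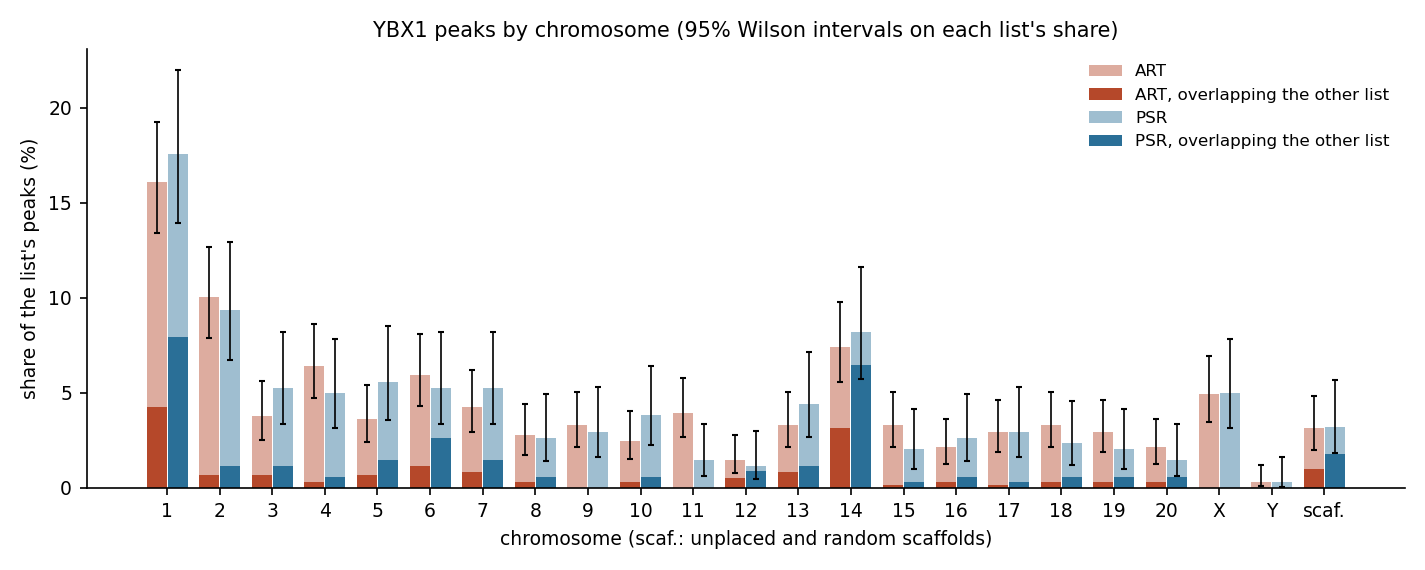
Share of each list's peaks on each chromosome (vertical, percent, with 95% Wilson intervals), ART in red and PSR in blue, with the part that overlaps the other list in full colour. The intervals of the 2 lists overlap on every chromosome, and the overlapping part is largest on chromosomes 1 and 14 and is 0 on 9, 11, X and Y.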

How the data were processed

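YBX1 ChIP-seq of A10 cells was analysed from 2 deposited broad peak lists, 1 per library. Per the submitters' processing notes the tools were FastQC, Bowtie2, SAMtools, MACS2 and HOMER. The sources used here do not give versions, cutoffs, duplicate handling, the genome build or how the single YBX1 input was used. Each deposited peak has a score (10 times its −log10 q), a fold enrichment (a ratio over the expected level), and −log10 p and −log10 q values from the authors' caller. These served to rank, class and filter peaks within a list. They were also set side by side across the lists, for partner peaks and at equal cutoffs, as descriptions only. Read totals are not in the lists, so depth is unknown beyond the background level recovered by solving fold = (reads + 1) / (expected level + 1) together with the upper-tail Poisson p (tolerance 0.0001).

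Overlaps, gaps and merged lengths were computed in Python 3.11.15 with pandas 2.3.3 and scipy 1.17.1, and shared counts were the same in bedtools 2.31.1. The scripts were tested on simulated lists with planted overlaps. Positions are counted from 1. Medians carry exact order-statistic intervals of 95%. Groups were taken from the sample titles. Peaks named are, on assembled chromosomes, the 8 shared ART, 8 ART-only and 8 PSR-only peaks with the highest −log10 q, the 3 longest and 3 farthest of each class, and the dense blocks. Pairs with a fold of at least 4, the scaffold peak and the 3 kinds were chosen after their values were seen. The members, rules and alternatives were chosen with earlier results of these data known. Chance overlap was not estimated.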

Additional observations from a re-analysis of the deposited data

How the results depend on the processing

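The alternatives at a −log10 p of at least 6 and 7 were added after the data were seen. Of 90 values under alternatives, 50 stayed within the 95% interval of the reported value (for peak numbers, within 1.5 times it) and 40 did not. The interval of shared bases counts every base as independent and is too narrow, so small changes count among the 40. Stricter cutoffs keep fewer peaks by construction, and otherwise the cause was not tested. ART held more peaks, and shared peaks the longer median, under each alternative run for them. PSR also kept the larger shared share. That goes with its shorter list, since similar numbers of peaks were shared on both sides, and is not a separate result. The fold cutoff was run for the shared shares only, not for length.

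The shared shares of ART and PSR were 11.2% and 19.9% with reciprocal overlap of 50%, 20.3% and 43.5% at −log10 q ≥ 2, 48.2% and 93.1% with at least 5, 5.41% and 9.64% with a fold of at least 4, 10.2% and 18.8% without dense blocks, 22.0% and 37.7% with −log10 p from 6 up, and 31.7% and 52.6% with at least 7. The lists then held 359 and 177 (−log10 q ≥ 2), 56 and 29 (at least 5), 378 ART (−log10 p from 6 up) and 180 and 114 peaks (at least 7). Shared bases were 22.7% of ART and 57.2% of PSR at −log10 q ≥ 2, 49.5% and 88.5% with at least 5, 19.3% and 41.2% on assembled chromosomes, and 20.3% and 43.2% after merging within 1000 bp. At −log10 q ≥ 2 the PSR-only median length was 287.5 bp and the ART-only and PSR-only distances 4945 and 2989 kb. With at least 5 they were 473.5 bp, 10991 kb and 36461 kb, the PSR-only values over 2 peaks, and the ART-only length was 422 bp. Without dense blocks chromosome 1 held 12.8% of ART, chromosome 14 held 2.87% of ART and 2.79% of PSR, and the −log10 q of shared ART peaks was 3.53. No paired analysis was possible because ART and PSR came as a single library apiece.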
